A study of Arabidopsis thaliana with 24 samples.

Results

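Heat shock proteins and their cochaperones are a set of 44 Arabidopsis thaliana genes, taken as a list of loci, among the 32678 loci counted in this RNA-seq series. The list holds 3 members of the HSP101/CLPB class, 7 of HSP90, 9 of HSP70, 3 of HSP60, 16 small heat shock proteins and 6 cochaperones, and all 44 were found in the count tables. By their usual assignment 23 act in the cytosol, 9 in mitochondria, 5 in plastids and 2 in the endoplasmic reticulum (ER), and 5, whose site was not sure, were left without a compartment. Of the 44, 41 had enough counts to be tested. The samples were whole rosettes of 3-week-old soil-grown plants of C24, Te, CT101 and Col-0, the first, second and last being natural accessions and CT101 a line that the labels give by name alone. Each line contributed an ozone group, exposed to 350 nL of ozone per litre of air for 2 h, and a control group without that exposure, so that 8 groups of 3 libraries made up 24 libraries. Every library was made from a pool of rosettes, and no transgene, mutation or further agent is named in the labels. The series was designed around C24 and Te as accessions that differ in ozone sensitivity. The labels do not say how long after exposure the rosettes were frozen.

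Molecular chaperones keep proteins folded when heat or oxidants damage them. Small heat shock proteins hold unfolded chains, HSP70s and HSP90s refold them in cycles driven by ATP, HSP101 pulls chains out of aggregates, and HSP60s fold proteins inside a closed ring. Cochaperones hand clients from HSP70 to HSP90 or drive their ATP cycles, and each compartment of the plant cell has chaperones of its own. Transcription of the heat-inducible members is driven by heat shock factors, which bind as trimers to the heat shock element, a run of inverted GAA units in the promoter. Ozone enters the leaf through stomata and breaks down to reactive oxygen species in the cell wall space.

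The element itself is shown here because it is the sequence that heat shock factors read. A search of the 250 bases before the start given in the count tables, on both strands, for 3 inverted units (GAA, any 2 bases, TTC, any 2 bases and GAA, or the reverse complement of that run) found it before 10 of the 44 members (22.7%), and before 134 of 32398 nuclear loci (0.414%). Each line below gives, 5′ to 3′ on the gene's strand, the element in capitals with 8 bases on either side, read from the reference genome in TAIR10 coordinates, with the distance from the element to the start.
HSP90.1 (chr5:21352254-21352282, 125 bases): aacgaaaaGAACTTTCTGGAAttcgtttg
HSC70-1 (chr5:556554-556582, 120 bases): caaccatcGAACATTCTCGAAacatttta
Hsp70-2 (chr5:552686-552714, 47 bases): taattacaGAACATTCTGGAAactcaagt
AT3G09440 (chr3:2905765-2905793, 44 bases): gagccatcGAACCTTCTCGAAactcgagt
HSP70 (chr3:3993846-3993874, 62 bases): ttactcgtGAACGTTCTCGAAagctcttt
HSP17.4 (chr3:16984865-16984893, 32 bases): agaaacctGAAATTTCAAGAAacttgcag
AT1G53540 (chr1:19980238-19980266, 204 bases): caacaccaGAAACTTCTTGAAagcacctg
HSP18.2 (chr5:24062388-24062416, 169 bases): caacaaacGAAACTTCCTGAAatgccaag
cpHsc70-1 (chr4:12589906-12589934, 62 bases): atcttctcTTCTCGAAACTTCaagtgggg
cpHsc70-2 (chr5:20303341-20303369, 53 bases): caaccattTTCTAGAACCTTCcacttctt
AT3G09440 and HSP17.4 each held 2 elements, of which 1 is shown. The element stood before 6 of the 9 HSP70s, and before none of the 3 HSP101/CLPB members and none of the 6 cochaperones. Of its 10 holders, HSP90.1, HSC70-1, Hsp70-2, AT3G09440 and HSP70 rose under ozone in all 4 lines, AT1G53540 in 3 lines and HSP17.4 in Te. cpHsc70-1 fell in 3 lines, and HSP18.2 and cpHsc70-2 were called in none. Among all 41 tested members, with or without the element, 22 rose in all 4 lines, as did 21.6% of all tested loci. Whether the element goes with the rise was not tested. A shorter search for 2 units (GAA, any 2 bases and TTC, or TTC, any 2 bases and GAA, both of which the longer element contains) matched 63.6% of members and 16.4% of nuclear loci. RefSeq begins the transcript of 9 of the 10 holders further upstream and that of HSP90.1 158 bases further downstream. In the 250 bases before the RefSeq starts, 2 of 44 members (4.55%), HSP17.4 and AT1G53540, and 0.376% of nuclear loci held the longer element. These are matches of letters in a window, with no binding measured.

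The whole window before 2 strongly responding members is shown next, chosen after their values were seen and because RefSeq starts neither transcript further upstream. RefSeq starts AT5G51440 at the same base and HSP90.1 downstream, so that the marked element of HSP90.1 lies outside the 250 bases before its RefSeq start. The capitals mark the 3-unit element of HSP90.1 and the 2-unit element of AT5G51440, a small heat shock protein with no symbol in RefSeq.
HSP90.1 (chr5:21352149-21352398, plus strand): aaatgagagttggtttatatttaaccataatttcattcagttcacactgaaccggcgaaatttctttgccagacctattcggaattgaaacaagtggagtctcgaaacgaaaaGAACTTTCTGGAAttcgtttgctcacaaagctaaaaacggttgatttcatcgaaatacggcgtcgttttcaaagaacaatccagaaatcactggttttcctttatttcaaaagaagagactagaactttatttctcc
AT5G51440 (chr5:20890913-20891162, plus strand): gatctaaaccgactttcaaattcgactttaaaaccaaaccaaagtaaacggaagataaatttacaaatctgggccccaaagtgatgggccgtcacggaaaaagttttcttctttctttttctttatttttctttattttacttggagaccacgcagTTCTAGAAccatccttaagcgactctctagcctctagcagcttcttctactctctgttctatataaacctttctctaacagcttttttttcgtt
HSP90.1 and AT5G51440 had the largest fold changes of their classes in CT101, as described below by class.

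Totals ran from 13633768 to 25789925 counts per library, at which 1 count is worth about 0.0517 CPM, the count scaled to library size, at the median depth. Some libraries stood apart. Among members called higher under ozone, the ozone library numbered 2 was the lowest of its group for 25 of 26 in C24, 25 of 27 in Te, 27 of 28 in CT101 and 21 of 25 in Col-0. Over all loci called higher the same library was the lowest for 89.8% (C24), 57.3% (Te), 62.9% (CT101) and 73.9% (Col-0). All ozone libraries lay above all controls for 24 of 41 tested members in C24 (58.5%), beside 28.6% of all tested loci, and for 27 in Te (65.9%, beside 33.9%), 28 in CT101 (68.3%, beside 34%) and 26 in Col-0 (63.4%, beside 32.1%). With the ozone libraries numbered 2 left out of every line, all 126 calls summed over the 4 lines were kept. Among the Col-0 controls the library numbered 2 was high for several small heat shock proteins, given below. Labels of tissue were checked on marker lists. The 9 leaf genes had summed levels of 32196 to 62787 CPM in ozone libraries, against 60456 to 97269 CPM in controls, and 4 of 9 (C24), 9 (Te), 9 (CT101) and 8 (Col-0) fell, with none higher. Of all tested loci 22.2% (C24), 30.9% (Te), 32.4% (CT101) and 26.9% (Col-0) fell. The 6 root genes summed to 32.7 to 77.8 CPM under ozone, against 39.4 to 84.7 CPM in controls. Sums of the 6 flower genes stayed between 0.554 and 1.46 CPM under ozone and between 0.538 and 2.59 CPM in controls, and of the 5 seed genes at most 0.719 CPM under ozone and 0.0989 CPM in controls. No listed marker was without a count in every library. The part of these marker shifts in the results that follow was not tested, and in pooled whole rosettes fewer cells of a type and less RNA per cell cannot be told apart.

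Under ozone these genes took a larger share of all counts in every line, and most of the tested members were called higher. All 44 members together took 1.76% of scaled counts in ozone-exposed C24, against 0.578% in C24 controls, and 2.08% in ozone-exposed Te, against 0.528% in Te controls. The shares were 2.39% in ozone-exposed CT101, against 0.473% in its controls, and 1.73% in ozone-exposed Col-0, against 0.483% in its controls. The lowest ozone library, at 10849.6 CPM for the set, was above the highest control library, at 6319.8 CPM. Of 41 members tested, 26 were called higher and 4 lower in C24 (adjusted p under 0.05), where 25.6% and 22.2% of all 20554 tested loci were. Te had 27 higher and 7 lower members, beside 32% and 30.9% of all loci, and CT101 had 28 higher and 6 lower, beside 32.9% and 32.4%. Col-0 had 25 higher and 3 lower members, beside 30.0% and 26.9% of all loci. The median log2 fold change of members, ozone over control, was 1.69 (C24), 2.28 (Te), 2.63 (CT101) and 1.62 (Col-0), and that of all tested loci lay between -0.03 and -0.01. In all 4 lines 22 members rose (21.6% of all loci did) and 1, CLPB3, fell (17.7%). A further 8 rose in 1 to 3 lines, 6 fell in 1 to 3 lines, 4 were called in none, and no member was called in opposite directions.

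**Figure D1:**
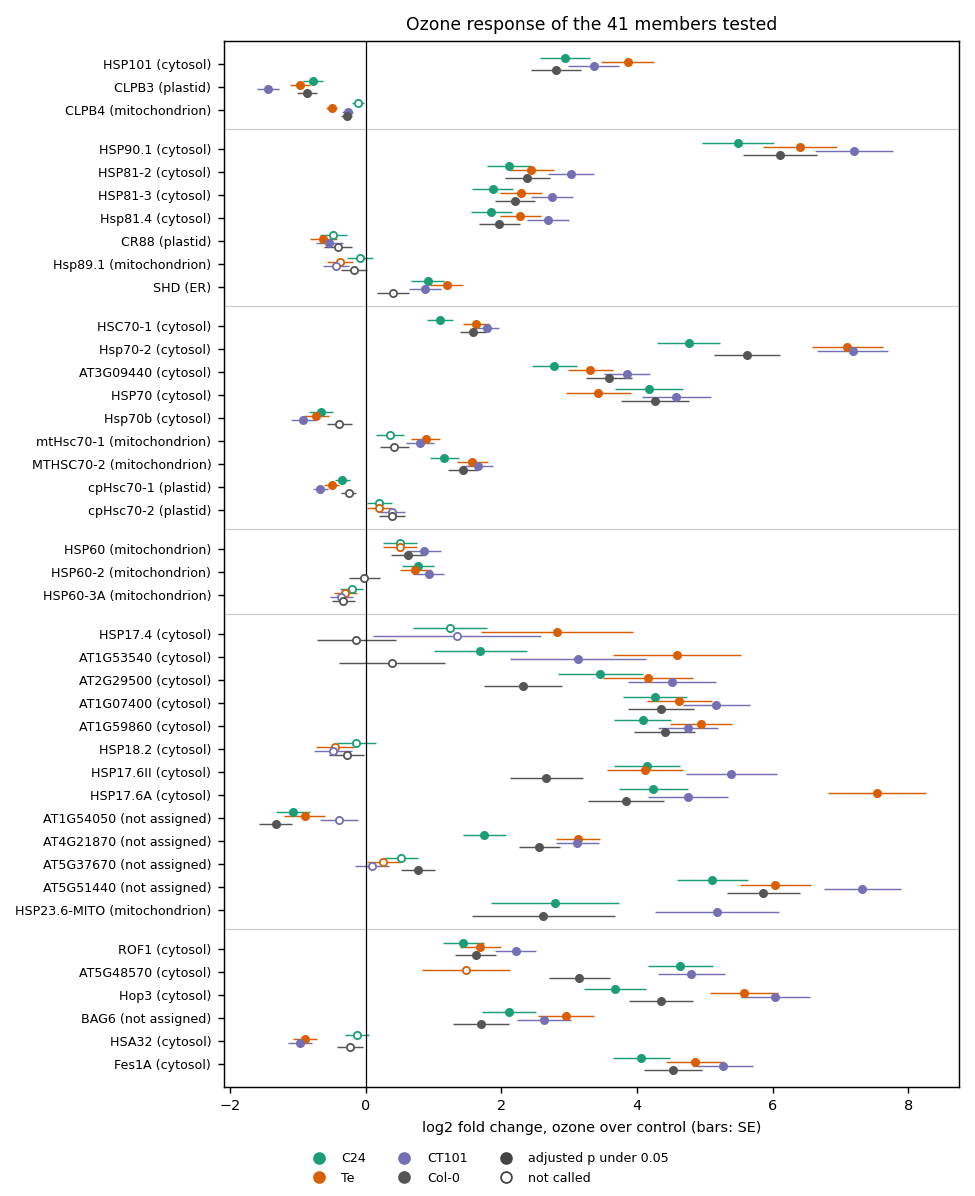
Ozone response of the 41 tested members, grouped by class from HSP101/CLPB at the top to cochaperones at the bottom. The horizontal axis is the log2 fold change of ozone over control with its SE, colours are the 4 lines, and filled points were called at adjusted p under 0.05. HSP23.6-MITO in Te is left out because its controls held no count. Cytosolic HSP90.1, Hsp70-2, Hop3 and Fes1A lie far to the right in every line, and plastid CLPB3, CR88 and cpHsc70-1 lie left of 0. Plastid cpHsc70-2 lies right of 0 in every line and was called in none.

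By compartment, most cytosolic members were called higher under ozone and no plastid member was. Of 23 cytosolic members, 19 (C24), 19 (Te), 19 (CT101) and 18 (Col-0) rose, and 1, 2, 2 and 0 fell. None of the 4 tested plastid members was called higher in any line, and 2 (C24), 3 (Te), 3 (CT101) and 1 (Col-0) fell. Of 8 tested mitochondrial members, 3, 4, 5 and 3 were higher and 0, 1, 1 and 1 lower in C24, Te, CT101 and Col-0. For comparison, 25.6% (C24), 32% (Te), 32.9% (CT101) and 30.0% (Col-0) of all tested loci rose. In the same order 22.2%, 30.9%, 32.4% and 26.9% of all tested loci fell. Whether a compartment differs from all loci was not tested. The median log2 fold change of cytosolic members lay between 2.66 (Col-0) and 3.85 (CT101), that of plastid members between -0.61 (CT101) and -0.33 (Col-0), and that of mitochondrial members between 0.20 (Col-0) and 0.83 (CT101). The compartment counts and medians leave out the 5 members whose compartments were dropped after the data were seen. Of those 5, 3 (C24), 3 (Te), 3 (CT101) and 4 (Col-0) rose and 1, 1, 0 and 1 fell. An earlier assignment put AT5G51440 in mitochondria, AT5G37670 in peroxisomes, BAG6 in the cytosol, and AT1G54050 and AT4G21870 in the cytosol or nucleus. Summed plastid members averaged 1249 CPM in ozone-exposed C24 and 1430.3 CPM in C24 controls, and 1424 CPM in ozone-exposed Col-0 and 1503 CPM in Col-0 controls. Leaf marker genes, many of which encode plastid proteins, were lower in the same libraries as stated above, and their part in the plastid values was not tested.

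**Figure D2:**
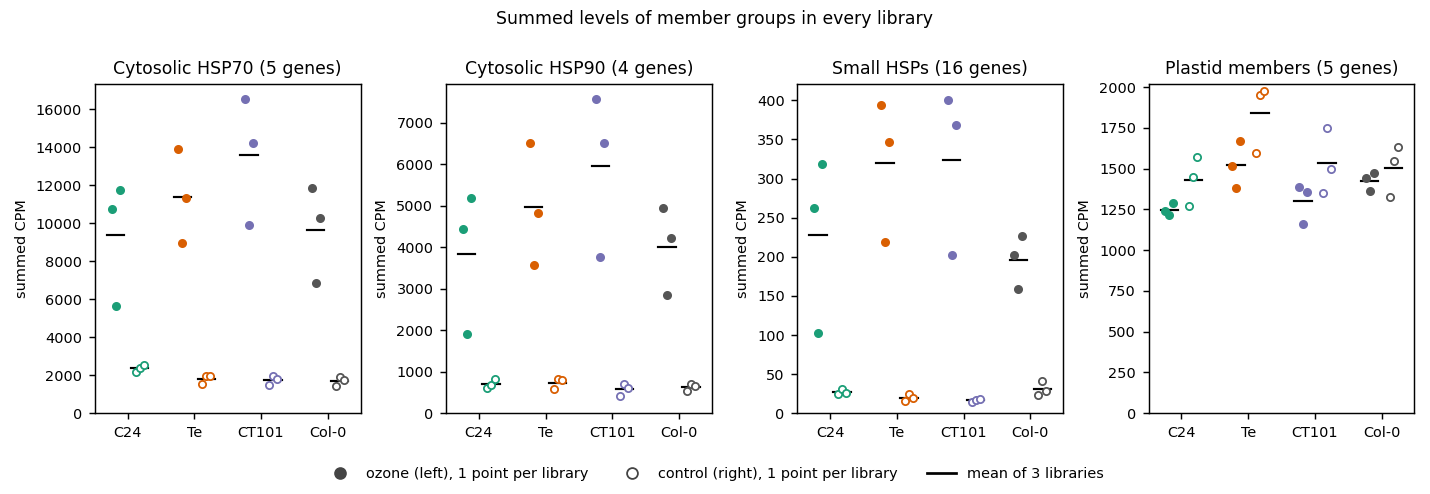
Summed CPM of 4 member groups in every library, with the ozone libraries left of the controls in each line and a bar at the mean of 3 libraries. Cytosolic HSP70s reach 5624 to 16555 CPM under ozone, against 1447 to 2548 CPM in controls, while plastid members overlap, at 1158 to 1670.4 CPM under ozone and 1273 to 1976 CPM in controls.

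Among the HSP101/CLPB unfoldases, the cytosolic and organellar members moved in opposite directions. HSP101, the cytosolic disaggregase needed for acquired heat tolerance, rose in all 4 lines. HSP101 stood at 130.3, 46.6 and 204 CPM in ozone-exposed C24, against 17.1, 16.3 and 16.3 CPM in C24 controls, and at 254, 129 and 218 CPM in ozone-exposed Te, against 12.7, 16.3 and 12.4 CPM in Te controls. Ozone-exposed CT101 had 170.5, 97.1 and 189 CPM, against 14.9, 15.3 and 14.1 CPM in CT101 controls, and ozone-exposed Col-0 had 95, 92.7 and 111 CPM, against 12.5, 17 and 13.2 CPM in Col-0 controls. Every ozone library was above every control, with C24 ozone 2 the lowest at 46.6 CPM. HSP101 had a log2 fold change of 2.94 ± 0.37 (C24), 3.86 ± 0.39 (Te), 3.36 ± 0.38 (CT101) and 2.81 ± 0.37 (Col-0), as log2 ± SE, with an adjusted p of at most 3.6e-06. CLPB3, the plastid homologue, fell in all 4 lines. C24 had 78.1, 98.7 and 63.2 CPM of CLPB3 under ozone, against 148, 127 and 137 CPM in controls, and Te had 102, 112 and 87 CPM under ozone, against 206, 183 and 201 CPM in controls. CT101 had 61.7, 75.1 and 59.7 CPM under ozone, against 188, 171 and 175 CPM in controls, and Col-0 had 98.9, 139 and 100.3 CPM under ozone, against 194, 222 and 204 CPM in controls. No ozone library reached the level of a control of its line, and the log2 fold change was -0.78 ± 0.15 (C24), -0.97 ± 0.15 (Te), -1.44 ± 0.16 (CT101) and -0.87 ± 0.15 (Col-0), with an adjusted p of at most 3.5e-04. CLPB4, the mitochondrial homologue, fell in Te, CT101 and Col-0 and was not called in C24. Its log2 fold change was -0.12 ± 0.09 (C24), -0.50 ± 0.08 (Te), -0.27 ± 0.08 (CT101) and -0.28 ± 0.08 (Col-0), with adjusted p from 3.4e-05 to 0.28. In CT101 and Col-0 the call was lost when only the groups compared were fitted (adjusted p 0.077 and 0.056). HSP101 and CLPB3 overlap a gene on the opposite strand over 2.7% and 1.7% of their length, and whether the counting used strand is not stated.

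All 4 cytosolic HSP90s rose in all 4 lines, and the heat-inducible HSP90.1 had the largest log2 fold changes of its class. HSP90.1 stood at 1413, 443 and 1743 CPM in ozone-exposed C24, against 25.3, 27.6 and 27 CPM in C24 controls, and at 1800.3, 864 and 1299.8 CPM in ozone-exposed Te, against 10.7, 23.7 and 12.7 CPM in Te controls. Ozone-exposed CT101 had 2538, 1132 and 2105 CPM, against 8.93, 16.5 and 13.8 CPM in CT101 controls, and ozone-exposed Col-0 had 1229, 685 and 1201 CPM, against 9.72, 22.8 and 12.4 CPM in Col-0 controls. Ozone libraries spanned 443 to 2538 CPM and controls 8.93 to 27.6 CPM, and C24 ozone 2 was again the lowest ozone library. HSP90.1 had a log2 fold change of 5.49 ± 0.53 (C24), 6.40 ± 0.55 (Te), 7.20 ± 0.58 (CT101) and 6.11 ± 0.55 (Col-0), with an adjusted p of at most 1.6e-07. The other cytosolic HSP90s are close neighbours on chromosome 5 and are also expressed without stress. HSP81-2 rose by 2.11 ± 0.33 (C24), 2.44 ± 0.33 (Te), 3.02 ± 0.34 (CT101) and 2.38 ± 0.33 (Col-0), with an adjusted p of at most 3.3e-05, HSP81-3 by 1.87 ± 0.30 (C24), 2.29 ± 0.31 (Te), 2.74 ± 0.31 (CT101) and 2.20 ± 0.30 (Col-0), with an adjusted p of at most 5.0e-05, and Hsp81.4 by 1.85 ± 0.30 (C24), 2.28 ± 0.30 (Te), 2.68 ± 0.31 (CT101) and 1.97 ± 0.30 (Col-0), with an adjusted p of at most 5.4e-05. Reads can be split among these 3, since 18.9%, 24.8% and 19.5% of the 50-base words in their exons occur elsewhere in the genome, so their separate values are uncertain. Per kilobase of exon, HSP90.1 averaged 652 CPM per kb over ozone libraries and 8.36 CPM per kb over controls, which placed it at rank 4 of the 44 members under ozone and at rank 20 in controls.

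The plastid and mitochondrial HSP90s were called higher in no line. CR88, the plastid HSP90 named after a chlorate-resistant mutant, fell in Te and CT101. C24 had 236, 290.3 and 294 CPM of CR88 under ozone, against 298, 415 and 428 CPM in controls, and Te had 249, 221 and 329.9 CPM under ozone, against 313, 479 and 448 CPM in controls. CT101 had 193, 249 and 263 CPM under ozone, against 264, 419 and 344 CPM in controls, and Col-0 had 218, 222 and 255 CPM under ozone, against 278, 293 and 353 CPM in controls. Ozone libraries lay below the controls of their line in C24, CT101 and Col-0 and overlapped them in Te. On the log2 scale its fold change was -0.48 ± 0.20 (C24), -0.63 ± 0.20 (Te), -0.54 ± 0.20 (CT101) and -0.41 ± 0.20 (Col-0), with adjusted p from 0.0086 to 0.082, called in Te and CT101. In CT101 the call was lost without CT101 control 2 or CT101 ozone 1 (adjusted p up to 0.11), and in C24, at an adjusted p of 0.053, 13 of 31 alternatives called it, the replicate block among them (-0.47, adjusted p = 0.0052). In Col-0 3 alternatives called it. Hsp89.1, in mitochondria, was called in no line (log2 fold change -0.09 (C24), -0.38 (Te), -0.44 (CT101) and -0.18 (Col-0)), with ozone and control values overlapping in each. In CT101, where the adjusted p of Hsp89.1 was just over the threshold, 20 of 31 alternatives called it lower. SHD (SHEPHERD), the ER HSP90 needed for folding of surface receptors, had a log2 fold change of 0.91 ± 0.24 (C24), 1.19 ± 0.25 (Te), 0.87 ± 0.24 (CT101) and 0.40 ± 0.24 (Col-0), with adjusted p from 2.7e-04 to 0.17, and was called higher in all lines but Col-0.

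HSP70s had the highest summed level of the classes, at 6711 to 18118 CPM in ozone libraries and 2444 to 3787 CPM in controls. HSC70-1, the constitutive cytosolic HSP70, had the highest level per length of any member in both treatments, at 1628 CPM per kb over ozone libraries and 571 CPM per kb over controls. HSC70-1 stood at 4150.2, 3059 and 4317 CPM in ozone-exposed C24, against 1652, 1858 and 1901 CPM in C24 controls, and at 4942, 3507 and 3819.7 CPM in ozone-exposed Te, against 1114, 1408 and 1446 CPM in Te controls. Ozone-exposed CT101 had 5475, 3948 and 4595 CPM, against 1220, 1479 and 1371 CPM in CT101 controls, and ozone-exposed Col-0 had 4976, 3110.3 and 4010.5 CPM, against 1157, 1498 and 1402 CPM in Col-0 controls. No control overlapped an ozone library of its line, and the log2 fold change was 1.09 ± 0.19 (C24), 1.63 ± 0.19 (Te), 1.78 ± 0.19 (CT101) and 1.58 ± 0.19 (Col-0), with an adjusted p of at most 8.2e-05. Its neighbour on chromosome 5, Hsp70-2, had the largest fold change of the class. C24 had 1951, 692 and 2365 CPM of Hsp70-2 under ozone, against 54.6, 61.8 and 68 CPM in controls, and Te had 2892, 1899 and 2828 CPM under ozone, against 14.3, 25.1 and 16.3 CPM in controls. CT101 had 3627, 2373 and 3808 CPM under ozone, against 15, 23.4 and 29 CPM in controls, and Col-0 had 1953, 1046 and 1966 CPM under ozone, against 23, 55 and 22.7 CPM in controls. Controls of C24 (54.6 to 68 CPM) lay above those of Te and CT101 (14.3 to 29 CPM), and CT101 had the highest ozone mean, at 3269.6 CPM. Hsp70-2 had a log2 fold change of 4.76 ± 0.47 (C24), 7.10 ± 0.52 (Te), 7.18 ± 0.52 (CT101) and 5.62 ± 0.49 (Col-0), with an adjusted p of at most 1.9e-07. AT3G09440, another cytosolic HSP70, rose by 2.78 ± 0.33 (C24), 3.31 ± 0.33 (Te), 3.85 ± 0.34 (CT101) and 3.58 ± 0.34 (Col-0), with an adjusted p of at most 1.3e-06, and averaged 3245 ± 1383 CPM in ozone-exposed C24 and 474 ± 61.6 CPM in C24 controls (SD, n = 3 each). HSP70 (AT3G12580), the strongly heat-inducible member, rose by 4.18 ± 0.50 (C24), 3.43 ± 0.48 (Te), 4.58 ± 0.51 (CT101) and 4.26 ± 0.50 (Col-0), with an adjusted p of at most 4.5e-06, with ozone libraries between 206 and 1474 CPM and controls between 21.6 and 90.3 CPM.

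Hsp70b, also cytosolic, went the other way at a much lower level. Hsp70b stood at 2.61, 3.52 and 2.67 CPM in ozone-exposed C24, against 4.02, 5.14 and 4.65 CPM in C24 controls, and at 4.41, 5.13 and 3.21 CPM in ozone-exposed Te, against 6.45, 7.49 and 7.14 CPM in Te controls. Ozone-exposed CT101 had 3.41, 3.32 and 2.78 CPM, against 6, 6.23 and 5.8 CPM in CT101 controls, and ozone-exposed Col-0 had 3.25, 4 and 2.93 CPM, against 4.48, 5.26 and 3.61 CPM in Col-0 controls. Groups did not overlap in C24, Te and CT101, where it fell, and they overlapped in Col-0. Hsp70b had a log2 fold change of -0.66 ± 0.18 (C24), -0.73 ± 0.18 (Te), -0.92 ± 0.18 (CT101) and -0.39 ± 0.18 (Col-0), with adjusted p from 1.4e-04 to 0.071. Of the mitochondrial HSP70s, MTHSC70-2 rose by 1.16 ± 0.22 (C24), 1.57 ± 0.23 (Te), 1.65 ± 0.23 (CT101) and 1.43 ± 0.22 (Col-0), with an adjusted p of at most 2.8e-04, and mtHsc70-1 was called in Te and CT101, its log2 fold change being 0.36 ± 0.21 (C24), 0.88 ± 0.21 (Te), 0.80 ± 0.21 (CT101) and 0.42 ± 0.21 (Col-0), with adjusted p from 0.0012 to 0.17. For MTHSC70-2, 18.1% of 50-base words occur elsewhere in the genome. The plastid HSP70s, which import and fold stromal proteins, were called higher in no line. C24 had 329.6, 336 and 321 CPM of cpHsc70-1 under ozone, against 400.5, 395 and 457 CPM in controls, and Te had 348, 430.2 and 444 CPM under ozone, against 534, 579 and 617 CPM in controls. CT101 had 308, 310.2 and 284 CPM under ozone, against 452, 508 and 472 CPM in controls, and Col-0 had 384, 390.5 and 386 CPM under ozone, against 427, 449 and 501 CPM in controls. Every ozone library of cpHsc70-1 was below every control of its line. On the log2 scale its fold change was -0.35 ± 0.11 (C24), -0.50 ± 0.11 (Te), -0.67 ± 0.11 (CT101) and -0.25 ± 0.11 (Col-0), with adjusted p from 1.3e-05 to 0.051, called in all lines but Col-0, and the C24 call was lost without C24 control 3 or with the groups fitted alone (adjusted p up to 0.074). In Col-0, at an adjusted p of 0.051, 18 of 31 alternatives called cpHsc70-1 lower. cpHsc70-2 was called in no line, at 0.20 (C24), 0.20 (Te), 0.39 (CT101) and 0.39 (Col-0). In Col-0 its ozone libraries all lay above the controls. Of 31 alternatives 4 called it higher in CT101 and 2 in Col-0. Among them, leaving out the ozone libraries numbered 2 gave 0.55 in CT101 (adjusted p = 0.0095) and 0.41 in Col-0.

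The mitochondrial HSP60 chaperonins had small fold changes. HSP60 stood at 156, 104 and 189.8 CPM in ozone-exposed C24, against 85.6, 104 and 127 CPM in C24 controls, and at 167, 113 and 149.8 CPM in ozone-exposed Te, against 76.4, 120.4 and 108 CPM in Te controls. Ozone-exposed CT101 had 177, 114 and 164 CPM, against 60.2, 99.1 and 91.7 CPM in CT101 controls, and ozone-exposed Col-0 had 129, 97.2 and 140.4 CPM, against 64, 79.6 and 95.3 CPM in Col-0 controls. HSP60 had the highest level per length of the class, and its ozone and control libraries overlapped in C24 and Te. HSP60 had a log2 fold change of 0.51 ± 0.25 (C24), 0.50 ± 0.25 (Te), 0.86 ± 0.25 (CT101) and 0.62 ± 0.25 (Col-0), with adjusted p from 0.0049 to 0.099, called in CT101 and Col-0. The Col-0 call was lost when any of Col-0 control 1, control 2, ozone 1 or ozone 3 was left out, or with totals alone (adjusted p up to 0.15). C24 had 57.9, 53.2 and 86.9 CPM of HSP60-2 under ozone, against 28.9, 42 and 44.9 CPM in controls, and Te had 47.3, 37 and 53.9 CPM under ozone, against 23.2, 29.2 and 31.1 CPM in controls. CT101 had 49.5, 45.4 and 62.5 CPM under ozone, against 19.5, 31.8 and 31.1 CPM in controls, and Col-0 had 27.8, 30 and 40.4 CPM under ozone, against 30.4, 29.9 and 39.2 CPM in controls. HSP60-2 was higher under ozone without overlap in C24, Te and CT101, and its groups overlapped in Col-0. HSP60-2 had a log2 fold change of 0.77 ± 0.23 (C24), 0.73 ± 0.23 (Te), 0.93 ± 0.23 (CT101) and -0.02 ± 0.23 (Col-0), with adjusted p from 0.0012 to 0.95, called in all lines but Col-0, and the C24 call was lost without C24 ozone 3 (adjusted p = 0.069). HSP60-3A was called in no line, at -0.21, -0.30, -0.36 and -0.33.

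Small heat shock proteins bind unfolding proteins without using ATP. Their summed level was 103 to 401 CPM over ozone libraries, against 14.7 to 40.6 CPM over controls, far below that of the HSP70s. Of 13 tested members, 9 (C24), 10 (Te), 9 (CT101) and 9 (Col-0) rose, and 1, 1, 0 and 1 fell. The median log2 fold change of the class ran from 2.56 (Col-0) to 4.52 (CT101), with HSP23.6-MITO in Te at its lower bound. AT5G51440, an HSP20-like protein, had the highest level per length of the class, at 83.9 CPM per kb over ozone libraries and 1.2 CPM per kb over controls. AT5G51440 stood at 58.9, 18.4 and 83.5 CPM in ozone-exposed C24, against 1.34, 1.93 and 1.36 CPM in C24 controls, and at 173, 89.9 and 141 CPM in ozone-exposed Te, against 1.22, 2.85 and 2.07 CPM in Te controls. Ozone-exposed CT101 had 172, 71.7 and 146 CPM, against 0.489, 1.05 and 0.892 CPM in CT101 controls, and ozone-exposed Col-0 had 61.6, 38.4 and 69.4 CPM, against 0.815, 1.07 and 0.98 CPM in Col-0 controls. The groups were far apart in every line, with C24 ozone 2 the lowest ozone library. AT5G51440 had a log2 fold change of 5.11 ± 0.52 (C24), 6.04 ± 0.52 (Te), 7.32 ± 0.57 (CT101) and 5.86 ± 0.54 (Col-0), with an adjusted p of at most 2.7e-07. AT4G21870, a further HSP20-like protein, rose in all 4 lines. C24 had 15.4, 15.5 and 19.8 CPM of AT4G21870 under ozone, against 3.26, 4.35 and 7.37 CPM in controls, and Te had 45.4, 42.7 and 38.5 CPM under ozone, against 2.74, 5.51 and 6.21 CPM in controls. CT101 had 34.6, 31.5 and 40.8 CPM under ozone, against 3.55, 4.46 and 4.31 CPM in controls, and Col-0 had 54.6, 32.5 and 42.4 CPM under ozone, against 5.59, 5.26 and 11.1 CPM in controls. Here the ozone libraries numbered 2 were not low in C24 or Te, and the log2 fold change was 1.75 ± 0.31 (C24), 3.13 ± 0.32 (Te), 3.12 ± 0.32 (CT101) and 2.56 ± 0.30 (Col-0), with an adjusted p of at most 1.4e-04.

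The cytosolic class I and II members were low in controls, averaging from 0.411 (HSP17.6A) to 2.48 (AT1G07400) CPM per kb over control libraries. AT1G07400 rose by 4.26 ± 0.47 (C24), 4.62 ± 0.48 (Te), 5.17 ± 0.49 (CT101) and 4.35 ± 0.49 (Col-0), with an adjusted p of at most 6.7e-07, and AT1G59860 by 4.08 ± 0.42 (C24), 4.94 ± 0.46 (Te), 4.75 ± 0.44 (CT101) and 4.41 ± 0.45 (Col-0), with an adjusted p of at most 3.6e-07, with controls of at most 3.72 and 2.13 CPM. AT2G29500 rose by 3.46 ± 0.62 (C24), 4.16 ± 0.66 (Te), 4.52 ± 0.65 (CT101) and 2.32 ± 0.57 (Col-0), with an adjusted p of at most 0.0018. Class II HSP17.6II rose by 4.15 ± 0.49 (C24), 4.11 ± 0.56 (Te), 5.39 ± 0.67 (CT101) and 2.66 ± 0.54 (Col-0), with an adjusted p of at most 2.9e-04, and HSP17.6A by 4.24 ± 0.51 (C24), 7.54 ± 0.72 (Te), 4.75 ± 0.59 (CT101) and 3.84 ± 0.56 (Col-0), with an adjusted p of at most 9.3e-06, the Te controls of HSP17.6A holding 4 counts together. In Col-0, control 2 was high for these genes, at 9.16 CPM for AT2G29500 where the other Col-0 controls had 2.21 and 1.44 CPM. Without Col-0 control 2 the Col-0 log2 fold changes were 3.60 for AT2G29500, 5.02 for AT1G07400, 3.58 for HSP17.6II and 5.10 for HSP17.6A, and without Te control 2 that of HSP17.6II in Te was 4.86. AT1G53540, of class I, was called in C24, Te and CT101, and its log2 fold change was 1.69 ± 0.68 (C24), 4.59 ± 0.94 (Te), 3.13 ± 1.0 (CT101) and 0.39 ± 0.78 (Col-0), with adjusted p from 2.8e-04 to 0.7. Its C24 call was lost under 22 of 31 alternative settings (adjusted p up to 0.18), and without C24 control 2 or Te control 2 its value was 2.34 in C24 and 5.19 in Te. HSP17.4 was called in Te, and its log2 fold change was 1.24 ± 0.54 (C24), 2.82 ± 1.12 (Te), 1.35 ± 1.24 (CT101) and -0.14 ± 0.58 (Col-0), with adjusted p from 0.034 to 0.86. That call rested on 24 counts in ozone-exposed Te and 4 in Te controls, and was lost without Te control 1, Te control 2 or Te ozone 1 or with a replicate block (adjusted p up to 0.23; 4.04 without Te control 3 and 1.96 without Te ozone 1). HSP17.4 shares 8.3% of its length with a gene on the opposite strand.

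The remaining small heat shock proteins differed from these. HSP18.2, a class I gene widely used as a heat reporter, was called in no line, at -0.14, -0.46, -0.48 and -0.28, with 1.05 to 2.66 CPM under ozone and 1.43 to 3.20 CPM in controls. AT1G54050 fell in C24, Te and Col-0. AT1G54050 stood at 2.41, 2.86 and 3.42 CPM in ozone-exposed C24, against 5.94, 8.06 and 4.39 CPM in C24 controls, and at 1.28, 0.868 and 1.48 CPM in ozone-exposed Te, against 2.15, 2.91 and 1.81 CPM in Te controls. Ozone-exposed CT101 had 1.78, 1.42 and 1.91 CPM, against 1.69, 3.02 and 2.08 CPM in CT101 controls, and ozone-exposed Col-0 had 3.06, 4.2 and 2.93 CPM, against 8.32, 10.2 and 7.22 CPM in Col-0 controls. Ozone and control values overlapped in CT101. AT1G54050 had a log2 fold change of -1.08 ± 0.25 (C24), -0.90 ± 0.30 (Te), -0.40 ± 0.28 (CT101) and -1.33 ± 0.24 (Col-0), with adjusted p from 9.5e-05 to 0.22, and the Te call was lost without Te control 2 or Te ozone 2 (adjusted p up to 0.076). AT5G37670 was called in Col-0, at 0.77 ± 0.25 (adjusted p = 0.014), a call lost without Col-0 control 1 or Col-0 ozone 1 (adjusted p up to 0.064). HSP23.6-MITO, in mitochondria, rose from very few counts. In Te it had 92 counts over 3 ozone libraries and none over 3 controls, so that it was at least 39.5-fold higher, taking 3 counts over the group as the limit. In CT101 it had 134 counts under ozone and 4 in controls (5.18 ± 0.92 on the log2 scale, adjusted p = 6.9e-05; 6.34 without CT101 control 1). The C24 and Col-0 values of HSP23.6-MITO were 2.79 ± 0.94 and 2.62 ± 1.05, and were lost as calls when single libraries were left out (C24 control 1 or 3 and C24 ozone 1 or 3; Col-0 control 1 or 3 and Col-0 ozone 1 or 2) and, in Col-0, without a filter (adjusted p up to 0.13). Without control 2 they were 3.86 in C24 and 6.33 in Col-0. Plastid HSP21 and ER-resident ATHSP22.0 had 5 counts each over all 24 libraries, and AT1G52560 had 107, so that none of these 3 was tested. At that depth 3 counts over a group of 3 libraries correspond to between 0.0472 and 0.0651 CPM, and a change in HSP21 or ATHSP22.0 below that level was not detectable.

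**Figure D3:**
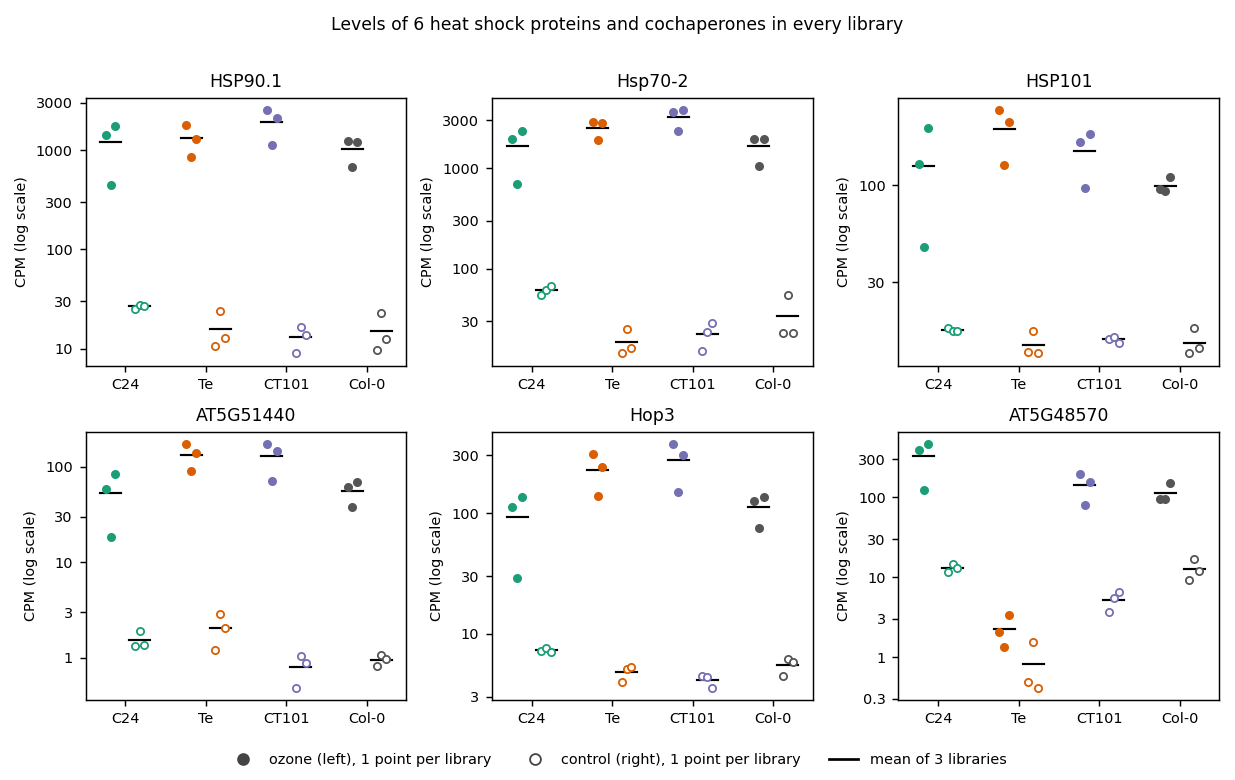
CPM of 6 members in every library on a log axis, with ozone libraries (filled) left of controls (open) in each line and a bar at the mean of 3 libraries. HSP90.1, Hsp70-2, HSP101, AT5G51440 and Hop3 are separated between treatments in every line, while AT5G48570 stays at 1.34 to 3.33 CPM in ozone-exposed Te, against 0.414 to 1.53 CPM in Te controls.

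Of the 6 cochaperones, 5 (C24), 4 (Te), 5 (CT101) and 5 (Col-0) rose. Fes1A, a nucleotide exchange factor of cytosolic HSP70, had the highest level per length among cochaperones. C24 had 248, 87.4 and 344 CPM of Fes1A under ozone, against 12, 13.7 and 14.8 CPM in controls, and Te had 517, 244 and 364 CPM under ozone, against 9.77, 16.4 and 12.8 CPM in controls. CT101 had 560.5, 250 and 479 CPM under ozone, against 9.42, 12.3 and 11.8 CPM in controls, and Col-0 had 301, 188 and 300.4 CPM under ozone, against 10.5, 12.6 and 10.8 CPM in controls. Ozone libraries ran from 87.4 to 560.5 CPM and controls from 9.42 to 16.4 CPM, and the log2 fold change was 4.06 ± 0.42 (C24), 4.85 ± 0.43 (Te), 5.27 ± 0.44 (CT101) and 4.53 ± 0.43 (Col-0), with an adjusted p of at most 3.5e-07. Hop3, which joins HSP70 to HSP90, had its largest fold changes in CT101 and Te. Hop3 stood at 112, 29.1 and 136 CPM in ozone-exposed C24, against 7.16, 7.61 and 7.05 CPM in C24 controls, and at 310.2, 138 and 240.2 CPM in ozone-exposed Te, against 4.01, 5.05 and 5.28 CPM in Te controls. Ozone-exposed CT101 had 372, 148 and 302 CPM, against 4.49, 4.41 and 3.57 CPM in CT101 controls, and ozone-exposed Col-0 had 125, 74.9 and 135 CPM, against 4.42, 6.16 and 5.78 CPM in Col-0 controls. Hop3 had a log2 fold change of 3.67 ± 0.46 (C24), 5.58 ± 0.50 (Te), 6.04 ± 0.51 (CT101) and 4.35 ± 0.47 (Col-0), with an adjusted p of at most 2.8e-06, with groups apart in every line. ROF1, a peptidyl-prolyl isomerase that binds HSP90, rose by 1.44 ± 0.30 (C24), 1.69 ± 0.30 (Te), 2.21 ± 0.30 (CT101) and 1.62 ± 0.30 (Col-0), with an adjusted p of at most 5.7e-04. BAG6, a BAG-domain protein, rose by 2.11 ± 0.40 (C24), 2.95 ± 0.41 (Te), 2.63 ± 0.40 (CT101) and 1.70 ± 0.41 (Col-0), with an adjusted p of at most 0.0014, and without C24 ozone 3 its C24 value was 1.42.

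AT5G48570 (ROF2, also FKBP65), the heat-inducible relative of ROF1, had its lowest counts in Te. C24 had 392, 123 and 464 CPM of AT5G48570 under ozone, against 11.6, 14.7 and 13 CPM in controls, and Te had 2.03, 1.34 and 3.33 CPM under ozone, against 0.489, 1.53 and 0.414 CPM in controls. CT101 had 196, 79.8 and 158 CPM under ozone, against 3.64, 5.42 and 6.54 CPM in controls, and Col-0 had 95.8, 94.8 and 149.7 CPM under ozone, against 9.2, 17.1 and 11.9 CPM in controls. Te held 106 counts over its ozone libraries and 48 over its controls, where every other group held 327 or more. AT5G48570 had a log2 fold change of 4.64 ± 0.48 (C24), 1.48 ± 0.65 (Te), 4.80 ± 0.49 (CT101) and 3.15 ± 0.45 (Col-0), with adjusted p from 6.9e-08 to 0.052. It was not called in Te, where the value of 2.03 CPM in ozone 1 exceeded 1.53 CPM in control 2 but that of ozone 2 did not. With an adjusted p of 0.052 it lay near the threshold, and 8 of 31 alternatives called it, with 2.31 (adjusted p = 0.015) without Te control 2 and 1.66 (adjusted p = 0.0091) without the ozone libraries numbered 2. HSA32, a protein needed to retain heat tolerance after acclimation, moved against its class. HSA32 stood at 3.96, 3.32 and 3.15 CPM in ozone-exposed C24, against 4.42, 3.51 and 3.5 CPM in C24 controls, and at 2.96, 3.39 and 2.53 CPM in ozone-exposed Te, against 6.4, 5.05 and 5.07 CPM in Te controls. Ozone-exposed CT101 had 2.9, 1.97 and 2.9 CPM, against 6.26, 4.7 and 4.36 CPM in CT101 controls, and ozone-exposed Col-0 had 2.27, 2.26 and 2.1 CPM, against 2.68, 2.38 and 2.73 CPM in Col-0 controls. Groups did not overlap in Te, CT101 and Col-0. On the log2 scale its fold change was -0.13 ± 0.18 (C24), -0.90 ± 0.18 (Te), -0.97 ± 0.18 (CT101) and -0.23 ± 0.19 (Col-0), with adjusted p from 8.0e-05 to 0.6, called in Te and CT101.

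Whether the lines differed in their ozone response was tested as the difference of log2 fold changes. Across the 4 lines 4 of 41 members were called (9.76%), Hsp70-2, AT5G48570, Hop3 and HSA32, beside 9.54% of all loci, so that the share of members was near the background. Of 31 alternatives, 17 lost this call across lines for Hop3, 24 for HSA32, 1 for AT5G48570 and 0 for Hsp70-2. Between Te and C24 3 members differed (9.58% of loci did), and between CT101 and C24 3 (9.71%). None of the 41 was called between Col-0 and C24 (3.37% of loci), CT101 and Te (0.321%), Te and Col-0 (0.954%) or CT101 and Col-0 (1.6%) by edgeR. At an unadjusted p under 0.05 those 4 pairs had 2, 3, 11 and 10 members, and DESeq2 called 0, 1, 2 and 1. Shares of all loci under those 2 settings are not given, so these counts cannot be set against a background. Hsp70-2 responded more in Te than in C24, by 2.33 ± 0.58 (log2, adjusted p = 0.014), and more in CT101 than in C24, by 2.42 ± 0.58 (adjusted p = 0.015). Those calls held under every alternative tried, with adjusted p up to 0.042 and 0.046. The ozone mean of Hsp70-2 was 2539.8 CPM in Te and 1669 CPM in C24, and its control mean 18.6 CPM in Te and 61.5 CPM in C24. AT5G48570 responded less in Te than in C24, by -3.16 ± 0.82 (adjusted p = 0.019), a call lost without Te control 2 (adjusted p = 0.18). Hop3 responded more in CT101 than in C24, by 2.37 ± 0.61 (adjusted p = 0.021), lost without CT101 ozone 1 or CT101 ozone 3 or with those groups fitted alone (adjusted p up to 0.075). For Te against C24, Hop3 differed by 1.92 ± 0.61 (adjusted p = 0.051). AT4G21870 responded more in Te than in C24, by 1.38 ± 0.43 (adjusted p = 0.050, under 0.05 before rounding), and HSA32 less in CT101 than in C24, by -0.85 ± 0.26 (adjusted p = 0.041). Those 2 calls were lost under 18 and 20 of 32 alternatives.

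**Figure D4:**
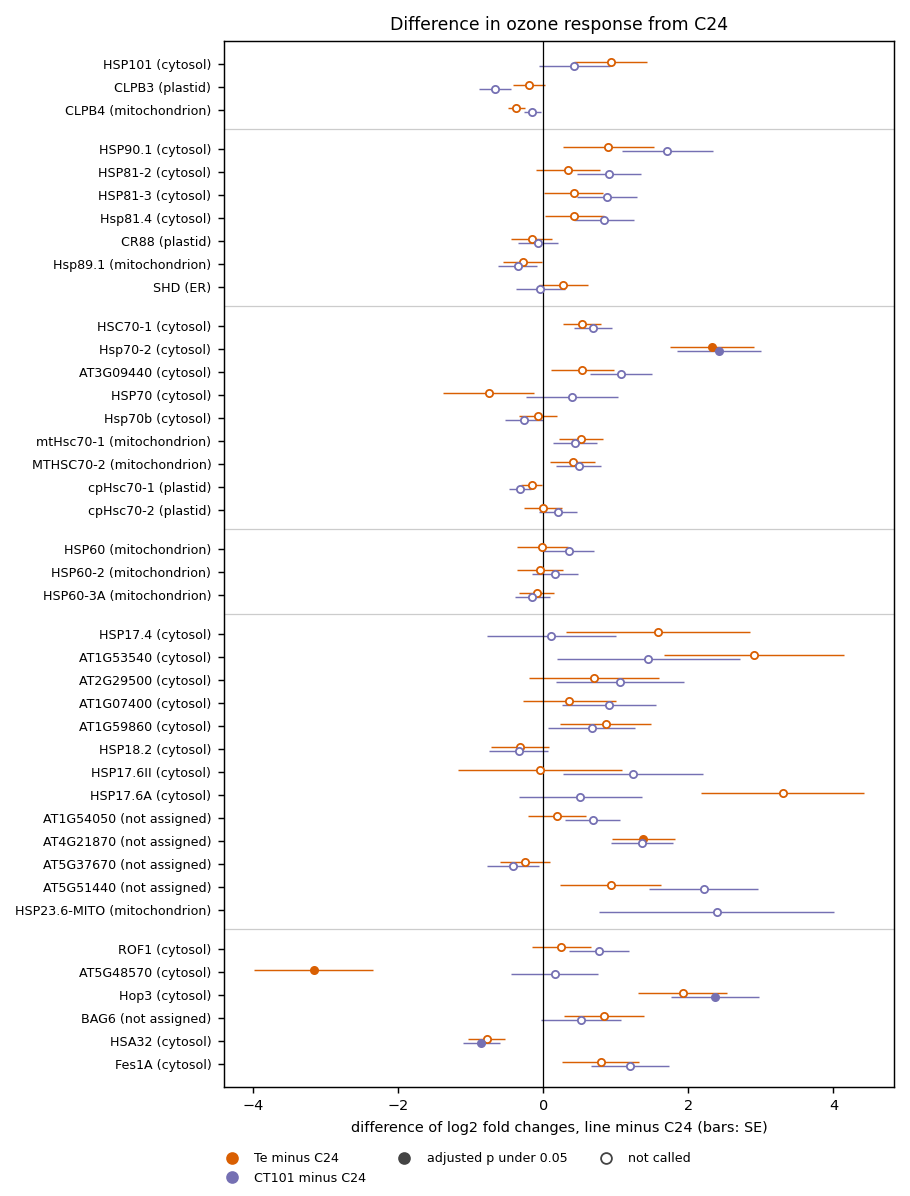
Difference in ozone response of Te and CT101 from C24 for the tested members, as the difference of log2 fold changes with its SE. Filled points were called at adjusted p under 0.05, and HSP23.6-MITO is left out for Te. Hsp70-2 lies right of 0 for both lines, at 2.33 and 2.42, and AT5G48570 lies at -3.16 for Te.

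Libraries of equal treatment and equal replicate number mostly deviated together across lines, and taking that into account changed these counts. The labels do not say what the numbers mark, so the block was chosen from these same data. Controls of CT101 and Col-0 did not pass that check (lowest correlation 0.037). With a replicate block within each treatment, 21 members differed in response across the 4 lines (51.2%, beside 31.1% of all loci), 14 between Te and C24 (34.1%, beside 23.4%) and 19 between CT101 and C24 (46.3%, beside 29.2%). Of the 14, 11 responded more in Te, and of the 19, 15 responded more in CT101. The cytosolic HSP90s were all among the 15, led by HSP90.1 at 1.86 ± 0.33 (adjusted p = 7.5e-04), as were HSC70-1 at 0.69 ± 0.11, Hsp70-2 at 2.57 ± 0.38, AT3G09440 at 1.14 ± 0.20, AT5G51440 at 2.29 ± 0.49, ROF1 at 0.79 ± 0.15, Hop3 at 2.47 ± 0.34 and Fes1A at 1.28 ± 0.29. Of members that responded more in Te, the largest differences were those of HSP17.6A at 3.31 ± 0.92, Hsp70-2 at 2.51 ± 0.38 and Hop3 at 2.05 ± 0.34, while AT5G48570 responded less in Te, by -3.08 ± 0.72 (adjusted p = 0.0067). CLPB3 fell by more in CT101 than in C24, with a difference of -0.65 ± 0.12 (adjusted p = 5.0e-04). Fewer were called between Col-0 and C24 (3, beside 12.2% of loci), Te and Col-0 (3, beside 4.65%) and CT101 and Te (1, AT5G48570, beside 1.61%), and 13 between CT101 and Col-0 (beside 13.6%).

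Lines also differed without ozone. Reads of all 4 lines were mapped to TAIR10, the Col-0 reference. Loss of reads where a line differs from it in sequence was not tested, and levels compared between lines can include such loss. Among controls, 12 of 41 members differed across the 4 lines (29.3%, beside 36.4% of all loci). Te and C24 differed in 12 members (beside 30.1% of loci), CT101 and C24 in 7 (16.6%), Col-0 and C24 in 4 (26.4%), CT101 and Te in 1 (5.23%), Te and Col-0 in 8 (15.8%) and CT101 and Col-0 in 4 (15.7%). With the replicate block within treatment the counts were 30 across lines, beside 56.4% of loci, and, for the pairs in that order, 20 (beside 44.3%), 19 (30.6%), 15 (40.7%), 5 (10.6%), 16 (26.8%) and 9 (25.5%). AT5G48570 was lower in control Te than in control C24 (log2 difference -4.01 ± 0.57, adjusted p = 1.9e-05), and lower in Te than in Col-0 (-3.97 ± 0.57). CT101 controls stood above Te controls for it (2.67 ± 0.58, adjusted p = 0.0069). CLPB4 was higher in control Te, CT101 and Col-0 than in control C24, by 1.32 ± 0.09, 1.16 ± 0.09 and 0.87 ± 0.09. HSP17.4 was lower in Te and CT101 than in C24 (-4.43 ± 0.93 and -4.22 ± 0.89), and AT1G54050 likewise (-1.42 ± 0.25 and -1.44 ± 0.25). SHD was lower in Te and CT101 than in C24 (-0.99 ± 0.24 and -0.86 ± 0.24), as was Hsp70-2 (-1.73 ± 0.42 and -1.45 ± 0.41). Higher in Te than in C24 were CLPB3 (0.52 ± 0.15), Hsp70b (0.61 ± 0.17), cpHsc70-1 (0.47 ± 0.11) and HSA32 (0.53 ± 0.17). The members called for response and for control level overlap in Hsp70-2, AT5G48570 and HSA32. Because the difference in response uses the same controls, these values are given side by side and not as separate evidence.

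Heat shock factors, the transcription factors of the element shown above, moved in both directions. Of 21 listed, 16 were tested, and 10 (C24), 9 (Te), 10 (CT101) and 10 (Col-0) rose, while 2, 4, 5 and 3 fell. Of all tested loci 25.6% (C24), 32% (Te), 32.9% (CT101) and 30.0% (Col-0) rose. In the same order 22.2%, 30.9%, 32.4% and 26.9% of all tested loci fell. The share of these factors that rose was thus above that of all loci in every line. The share that fell was above it in none. The median log2 fold change of the list was 0.93, 1.03, 1.27 and 1.29. HSFA2, the heat-induced factor that maintains expression of heat shock proteins, rose most. C24 had 60.7, 28.7 and 97.9 CPM of HSFA2 under ozone, against 2.91, 3.31 and 3.08 CPM in controls, and Te had 216, 122 and 209 CPM under ozone, against 2.79, 8.36 and 5.8 CPM in controls. CT101 had 176, 114 and 229 CPM under ozone, against 1.55, 3.79 and 3.37 CPM in controls, and Col-0 had 95.4, 91.2 and 114 CPM under ozone, against 1.51, 2.26 and 2.01 CPM in controls. Ozone libraries ran from 28.7 to 229 CPM and controls from 1.51 to 8.36 CPM. On the log2 scale its fold change was 4.33 ± 0.45 (C24), 5.01 ± 0.45 (Te), 5.90 ± 0.48 (CT101) and 5.68 ± 0.48 (Col-0), with an adjusted p of at most 3.9e-07. HSF A4A rose by 2.65 ± 0.23 (C24), 4.0 ± 0.25 (Te), 3.53 ± 0.24 (CT101) and 3.79 ± 0.25 (Col-0), with an adjusted p of at most 4.5e-08, HSFA7A by 3.20 ± 0.38 (C24), 2.13 ± 0.38 (Te), 2.51 ± 0.37 (CT101) and 1.40 ± 0.36 (Col-0), with an adjusted p of at most 0.0024, and HSFA8 by 1.62 ± 0.25 (C24), 3.94 ± 0.30 (Te), 3.06 ± 0.27 (CT101) and 2.63 ± 0.27 (Col-0), with an adjusted p of at most 2.8e-05. RHA1, HSFB2A and AT-HSFB2B also rose in all 4 lines, by 1.63, 1.36 and 1.04 in C24 and 2.97, 1.39 and 1.80 in CT101. The group that starts the heat response was mixed. HSFA1D rose by 0.82 to 1.17, while HSF3 fell in all 4 lines, at -0.50 (C24), -0.59 (Te), -0.89 (CT101) and -0.78 (Col-0). HSFA1E fell in CT101 and Col-0 (-0.49 and -0.77), and HSF1 was called in no line. HSFB3 was called higher in C24, CT101 and Col-0 (1.93, 1.67 and 2.99). The HSFB3 calls were lost under 18 of 29 alternatives in C24 (adjusted p up to 0.17) and under 5 of 29 in CT101 (up to 0.11), and its value was 2.59 in C24 without C24 control 3, and 6.09 and 2.32 in Col-0 without Col-0 control 1 and control 2. HSFC1 fell in Te and CT101, by 2.61 and 3.72 on the log2 scale, with -1.95 in Te without Te ozone 1 and -3.41 without Te ozone 2. HSFA8 and HSF A4A differed in ozone response across lines (adjusted p = 0.0030 and 0.028). AT-HSFA7B, HSFA9 and HSF4 were listed at 0 in every library, and HSFA6A and HSFA6B had too few counts to be tested. Altogether 5106 loci had no count in any library, all 279 organelle loci among them. Whether such zeros mark loci left out of the counting or loci without reads was not tested.

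Of 29 other chaperones and partners, 16 (C24), 17 (Te), 18 (CT101) and 18 (Col-0) rose, while 4, 5, 6 and 2 fell. Set against the shares of all tested loci given above, more of this list rose and less of it fell in every line. BIP3, the stress-induced HSP70 of the ER, rose by 4.89 ± 0.84 (C24), 5.17 ± 0.79 (Te), 4.14 ± 0.86 (CT101) and 2.43 ± 0.63 (Col-0), with an adjusted p of at most 0.0027. BIP3 stood at 22.3, 7.31 and 27.2 CPM in ozone-exposed C24, against 0.466, 0.89 and 0.522 CPM in C24 controls, and at 48.3, 26.9 and 41.5 CPM in ozone-exposed Te, against 0.782, 1.58 and 0.88 CPM in Te controls. Ozone-exposed CT101 had 8.36, 12.2 and 8.96 CPM, against 0.4, 0.815 and 0.446 CPM in CT101 controls, and ozone-exposed Col-0 had 18.7, 30.1 and 99 CPM, against 2.33, 20 and 4.44 CPM in Col-0 controls. Among Col-0 controls, library 2 was the highest for BIP3 as well, and the Col-0 value was 3.85 without it and 1.43 without Col-0 ozone 3. The Col-0 call was lost when only the groups compared were fitted (adjusted p = 0.072). J3, a cytosolic DNAJ cochaperone of HSP70, rose by 1.35 ± 0.23 (C24), 1.88 ± 0.23 (Te), 2.16 ± 0.23 (CT101) and 1.90 ± 0.23 (Col-0), with an adjusted p of at most 6.8e-05. Of the plastid chaperonin genes in the list, singled out after their values were seen, CPN60A, CPN60B and Cpn60beta3 fell in C24, Te and CT101 (-0.44, -0.35 and -0.27 in C24), and Cpn60beta3 also in Col-0 (-0.40). Cpn60beta2 fell in Te and CT101 (-0.66 and -0.53) and was not called in C24 or Col-0, and the cochaperonin CPN20 was called in no line (adjusted p from 0.076 to 0.41). Of the other heat-induced genes, MBF1C, a transcriptional coactivator of heat tolerance, rose by 2.48 ± 0.37 (C24), 2.50 ± 0.36 (Te), 3.15 ± 0.37 (CT101) and 2.17 ± 0.36 (Col-0), with an adjusted p of at most 4.8e-05. DREB2A, a transcription factor of the drought and heat response, rose by 1.97 ± 0.32 (C24), 3.24 ± 0.35 (Te), 2.95 ± 0.32 (CT101) and 3.24 ± 0.29 (Col-0), with an adjusted p of at most 4.8e-05. GolS1 was called in no line.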

How the data were processed

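Whole-rosette RNA of 24 libraries was read as counts per locus, deposited by the authors as HTSeq read counts that were not normalized. Per the submitters' processing notes, FastQC, Bowtie2, SAMtools and HTSeq were used with TAIR10, and whether counting used strand is not given in the sources used here. Replicates are biological per the labels' protocols. Loci passing filterByExpr (minimum count 10 in enough libraries, total 15) were scaled by TMM and fitted with the robust quasi-likelihood test of edgeR 4.0.16 (R 4.3.3, limma 3.58.1), 1 mean per group over all 24 libraries. Calls are at a Benjamini-Hochberg adjusted p under 0.05 over 20554 loci, and SE is the absolute log2 fold change over the root of F. The fit was also run on simulated counts drawn independently for each library. Those held no deviation shared by libraries of equal number, so the run cannot speak to the effect of a replicate block.

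CPM divides a count by library size times TMM factor. Levels between genes are per kb of RefSeq exons (TAIR10.1, where all 31912 matched nuclear loci overlap the files' coordinates and 56.26% share a start or end base). Limits from 3 counts over a group cover counting error only. Shared 50-base words were counted in the genome. The members and lists were chosen with earlier results of these data known. In each class, values in every library are given for the member with the smallest adjusted p, the member with the highest level per length, members called against the majority in at least 2 lines, and members whose responses differed by at least 1 (log2). Heat shock factors with a called change of at least 1 are named, as are BIP3, MBF1C, DREB2A and J3. The compartments of AT1G54050, AT4G21870, AT5G37670, AT5G51440 and BAG6 were dropped after the data were seen.

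Alternatives were DESeq2 1.42.0, RLE factors, library totals alone, no filter, the groups compared fitted alone, a replicate block, each library left out, and the ozone libraries numbered 2 left out. The labels share replicate numbers without saying what they mark. Deviations from group means (log2 of CPM plus 0.5) of same-numbered libraries had every correlation over 0.1 for all 6 pairs of ozone groups, for 5 of 6 pairs of control groups (lowest 0.037, CT101 and Col-0), and for ozone against control in C24 (lowest 0.103) and CT101 (0.185) but not in Te (0.048) or Col-0 (0.05), so this pairing comes from the data. Python 3.11.15 (numpy 2.4.6, pandas 2.3.3, scipy 1.17.1, matplotlib 3.10.9) made tables and figures.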

Additional observations from a re-analysis of the deposited data

Results flagged for a closer look

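Ozone responses that differed between lines, by the edgeR test of the difference itself, were those of Hsp70-2 (2.33 for Te minus C24 and 2.42 for CT101 minus C24, on the log2 scale), AT4G21870 (1.38, Te minus C24), AT5G48570 (-3.16, Te minus C24), Hop3 (2.37, CT101 minus C24) and HSA32 (-0.85, CT101 minus C24). The Hsp70-2 differences were called under all 32 alternatives each. The call for AT5G48570 was lost without Te control 2, that for Hop3 under 3 of 32 alternatives, and those for AT4G21870 and HSA32 under 18 and 20 of 32.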

How the results depend on the processing

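All counts here are of the 41 tested members. The numbers higher and lower under ozone stayed within 1.5 times of those given under every alternative run, except lower calls in Col-0, 3 as given, 6 with library totals alone, 7 with a replicate block and 5 without the ozone libraries numbered 2. Of 126 ozone calls, DESeq2 kept 125, RLE factors 126, totals alone 124, no filter 124, the replicate block 125 and groups fitted alone 119 of 123, with no change of sign. Of 38 values not called, 21 were called under at least 1 alternative, 4 of them (CR88 in C24, Hsp89.1 in CT101, cpHsc70-1 in Col-0 and AT5G48570 in Te) under more than 5 of 31. Totals alone shifted the median of all genes by -0.108 (C24), -0.136 (Te), -0.102 (CT101) and -0.13 (Col-0).

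Differences in ozone response between lines moved more. For these, shares of all loci are given above for the main fit and the block within treatment only. Across the 4 lines the count of 4 became 9 with DESeq2, 2 without a filter, 7 with the replicate block, 21 with the block within treatment and 7 without the ozone libraries numbered 2, and 1 to 4 when single libraries were left out. For Te minus C24 it was 6 with DESeq2, 8 with the block, 14 with the block within treatment, 5 without the ozone libraries numbered 2, and 1 to 7 without single libraries. For CT101 minus C24 these were 8, 6, 19, 8 and 1 to 8, and 1 with the groups fitted alone. For Col-0 minus C24 the block gave 1, the block within treatment 3, the ozone libraries numbered 2 left out 1, and single libraries left out 0 to 1. CT101 minus Te gave 1 with DESeq2, 1 with the block within treatment, 1 without the ozone libraries numbered 2, and 0 to 1 without single libraries. Te minus Col-0 gave 2, 3 and 3 under the same 3 alternatives. CT101 minus Col-0 gave 1 with DESeq2, 1 with the block, 13 with the block within treatment, 3 without the ozone libraries numbered 2, and 0 to 1 without single libraries.

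Among controls the block within treatment gave 30 across lines, 20 for Te minus C24, 19 for CT101 minus C24 (12 with the plain block, 3 to 8 without single libraries), 15 for Col-0 minus C24 (7 with groups fitted alone, 2 to 6 without single libraries), 5 for CT101 minus Te (2 with DESeq2 and 2 with groups fitted alone), 16 for Te minus Col-0 and 9 for CT101 minus Col-0 (7 with DESeq2). Neither the sign of HSP60-2 in Col-0 (from -0.20 to 0.10 with single libraries left out; 0.10, 0.08 and 0.03 without Col-0 control 3, ozone 1 and ozone 2) nor that of HSA32 in C24 (from -0.23 to 0.01; 0.01 without C24 control 1) was stable, and neither was called. In Te and Col-0, where same-numbered ozone and control libraries did not pass the check, the replicate block gave 26 higher and 9 lower members in Te and 26 and 7 in Col-0; in C24 and CT101 it gave 27 and 5, and 28 and 8. The share of member promoters with the heat shock element was 63.6% for 2 units. Before RefSeq starts, which were chosen after seeing the data, it was 4.55% for 3 units and 27.3% for 2 units. The cause of these shifts was not tested.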
